A study of Mus musculus with 4 samples.

Results

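*Ear2* and *Retnla* mononuclear phagocytes were a class of leukocytes in the single-cell RNA sequencing (scRNAseq) of mouse popliteal lymphatic vessels (PLVs), which drain the ankle, and of the adjacent superficial saphenous veins (SSVs). A cell belonged to the class when it held at least 5 unique molecular identifiers (UMIs, counts of single captured transcripts) of *Ear2*, *Retnla* and *Cd226* together and fewer than 20 UMIs of the stromal gene *Dcn* per 10000 UMIs. It also held at most 2 UMIs of *Lyve1*, *Cd209f* and *Cd209d*, at most 1 UMI of *Treml4*, *Ace* and *Spn*, and 0 UMIs of *Xcr1* and *Clec9a*. The rule selected 350 of 5488 wild-type (WT) cells and 27 of 3391 cells from mice transgenic for tumor necrosis factor (TNF-Tg), or 377 of 8879 cells in all. The same rule selected 28 of 1504 and 19 of 454 cells in the tdT1 and tdT2 libraries, and the series held 10837 cells. Because the rule read measured UMIs, the levels of *Ear2*, *Retnla* and *Cd226* and the size of the class describe what was chosen and were not tested.

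The WT library came from male wild-type mice and the TNF-Tg library from male TNF-Tg mice, both on the C57BL/6J background. The TNF-Tg mice carry a human TNF transgene and develop inflammatory-erosive arthritis. Mice of both libraries were 9 months old according to the sample labels, and each library pooled the vessels of 3 mice. Cells of both libraries were sorted for high forward or side scatter and for exclusion of DAPI. For tdT1 and tdT2, reporter-positive cells were sorted from male and female *Cspg4*-Cre;Ai9-tdTomato mice, in which Cre is driven by *Cspg4*, a gene of mural cells, so their leukocytes are the part that passed a sort aimed at muscle cells. WT and TNF-Tg were 1 library each, so no test between these conditions was possible and intervals cover counting error only. The libraries held 14256192 (tdT1), 2357031 (tdT2), 68773605 (WT) and 37557627 UMIs (TNF-Tg), and the phagocytes had median depths of 5322.5, 7340, 15489.5 and 14200 UMIs per cell. The tdT1 phagocytes stood apart in quality, with 13 of 28 cells above 10% mitochondrial UMIs, against 11 of 350 in WT and 1 of 27 in TNF-Tg. Libraries shared 0 to 5 cell barcodes in pairs, and 0 of these belonged to the phagocytes.

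Mononuclear phagocytes of connective tissue include macrophages, which remove debris, and dendritic cells, which carry antigen to lymph nodes. *Retnla* encodes resistin-like alpha, a secreted protein that interleukin-4 and interleukin-13 induce in macrophages through STAT6. *Ear2* encodes a secreted ribonuclease of the eosinophil-associated family. *Cd226* encodes DNAM-1, an adhesion receptor for the nectin family proteins PVR and nectin-2 that is best known from T cells and natural killer cells, and *Batf3* encodes a transcription factor needed for type 1 conventional dendritic cells (cDC1).

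The promoter windows of the 2 most abundant genes of the rule are printed because they name the class, though cells were chosen on the sum of *Retnla*, *Ear2* and *Cd226*, so that high levels of both come from the rule. *Retnla* (ENSMUSG00000061100) lies on the plus strand at chr16:48842551-48844461 and *Ear2* (ENSMUSG00000072596) on the plus strand at chr14:44102654-44103534 of GRCm38. The windows run from 250 bases before to 50 bases after the RefSeq start in GRCm38.p6, at chr16:48842359-48842658 and chr14:44102404-44102703, and capitals mark the motif matches found on both strands.
Retnla: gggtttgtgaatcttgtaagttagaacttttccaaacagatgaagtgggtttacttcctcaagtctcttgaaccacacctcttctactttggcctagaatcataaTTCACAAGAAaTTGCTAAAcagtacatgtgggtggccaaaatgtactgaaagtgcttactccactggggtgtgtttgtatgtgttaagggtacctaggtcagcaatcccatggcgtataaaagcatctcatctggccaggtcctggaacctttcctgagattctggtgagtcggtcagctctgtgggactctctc
Ear2: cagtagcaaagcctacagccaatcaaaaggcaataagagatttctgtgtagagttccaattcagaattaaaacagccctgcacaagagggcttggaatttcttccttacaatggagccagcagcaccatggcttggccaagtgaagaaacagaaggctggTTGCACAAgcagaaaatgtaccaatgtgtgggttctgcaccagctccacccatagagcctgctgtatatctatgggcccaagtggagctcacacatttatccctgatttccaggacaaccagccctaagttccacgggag

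The *Retnla* window held 1 match to the STAT6-type motif (TTC and GAA with any 4 bases between them), whose first base lay at position -145 from the start, and 1 match to the C/EBP-type motif (TTGC and AA with any 2 bases between them) at -134. The *Ear2* window held 1 C/EBP-type match, at -90. Among 32851 RefSeq windows of the same length, 6.95% held the STAT6-type letters and 10.8% the C/EBP-type letters. The ETS-IRF letters (GGAA and GAAA with any 2 bases between them), present in 2.72% of windows, were absent from both. These matches are a description of letters and no binding was measured.

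*Retnla* stood at 20290 UMIs per 1000000 UMIs (CPM) in the summed WT phagocytes and at 16510 CPM in the TNF-Tg phagocytes. In WT it was at 4292 CPM in macrophages with at least 5 UMIs of *Lyve1*, *Cd209f* and *Cd209d* (Lyve1 macrophages). It was at 44.6 CPM in cells with at least 10 UMIs of the complement C1q genes and fewer than 5 UMIs of the rule's genes (C1q macrophages). In cells with at least 3 UMIs of *Cd209a* and *Flt3* (Cd209a dendritic cells) it was at 33.7 CPM. The gate of this last class also required fewer than 10 C1q UMIs and fewer than 5 UMIs of the rule's genes. *Retnla* was thus also high in Lyve1 macrophages, with a UMI in 73.9% of the 1369 WT cells (59.4% when thinned to 3000 UMIs) and 77141 UMIs in all. In tdT1 and tdT2 these macrophages had 6438 and 12181 CPM against 12099 and 17723 CPM in the phagocytes, and in tdT1 they had 603 CPM of *Ear2* against 830 CPM. The 29 WT patrolling monocytes, cells with *Treml4*, *Ace* or *Spn*, had 9923 CPM of *Retnla* and 499 CPM of *Ear2*. Thus some cells with these genes lay just outside the rule. In the clustering given below, the cluster led by *Eno3*, *Ace* and *Treml4* held 5 WT and 221 TNF-Tg cells. Most of the 29 WT cells therefore lay in other clusters, and in WT the name patrolling monocytes stands for the gate only. In TNF-Tg mice the 371 patrolling monocytes had 43.1 CPM of *Retnla* and 300.1 CPM of *Ear2*.

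*Ear2* was at 957 CPM in the WT phagocytes and 485 CPM in the TNF-Tg phagocytes, against 63.3 and 4.54 CPM in Lyve1 macrophages and 7.92 and 2.98 CPM in C1q macrophages. *Ear2* reads could be shared with near copies, since its transcript is 96.4% identical to that of *Ear1* and 94.5% to that of *Ear10*, yet the WT phagocytes held 5311 UMIs of *Ear2*, 1 of *Ear1* and 0 of *Ear6*, *Ear10* and *Ear14*. Of the other resistin-like genes the WT phagocytes held 4 UMIs of *Retnlg*, 1 of *Retn* and 0 of *Retnlb*, against 112610 of *Retnla*.

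*Cd226* was at 191 CPM (WT) and 118 CPM (TNF-Tg) in the phagocytes, against 135 and 120.1 CPM in T cells and 167 and 1.08 CPM in patrolling monocytes, and at 18.2 CPM in WT Lyve1 macrophages and 61.7 CPM in WT cDC1. *Batf3*, which the rule did not use, was at 209, 295, 245 and 178 CPM in the tdT1, tdT2, WT and TNF-Tg phagocytes. Among WT classes only cDC1 came close, at 226 CPM, followed by patrolling monocytes at 151 CPM, Cd209a dendritic cells at 131 CPM, C1q macrophages at 85.0 CPM and Lyve1 macrophages at 48.3 CPM. The counting intervals of the WT phagocytes (232 to 258 CPM) and of WT cDC1 (201 to 252 CPM) overlapped, and all other WT classes lay below them. In TNF-Tg mice cDC1 stood above the phagocytes, at 262 CPM.

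**Figure D1:**
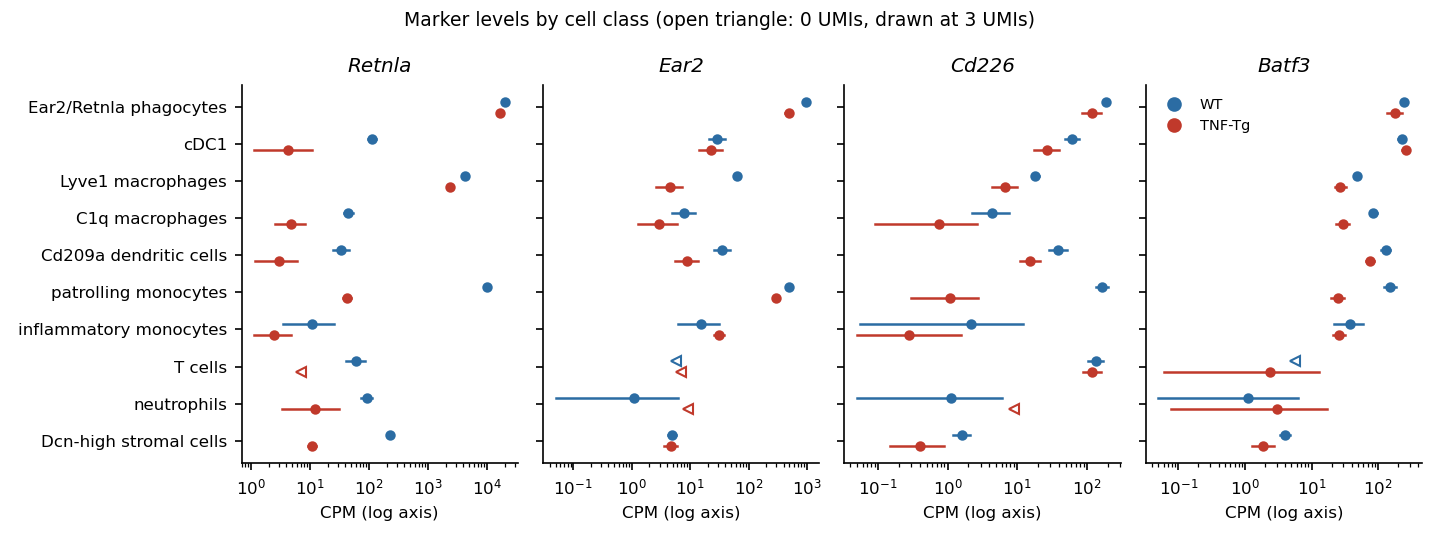
Levels of *Retnla*, *Ear2*, *Cd226* and *Batf3* (CPM, log axis) in 7 phagocyte classes, T cells, neutrophils and *Dcn*-high stromal cells of WT (blue) and TNF-Tg (red) libraries, with exact 95% Poisson intervals as lines and open triangles where no UMI was seen. The phagocytes had the highest *Retnla* and *Ear2* of both libraries, as the rule favoured. WT cells of the patrolling monocyte gate (167 CPM), most of which lay outside the *Ace* and *Treml4* cluster, and T cells (135 CPM) were near them in *Cd226* (191 CPM). WT cDC1 were near them in *Batf3* (226 CPM against 245 CPM).

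*Retnla* UMIs were also present in cells of other kinds. Free RNA can give such a background in droplet data, and its part in these UMIs was not tested. A *Retnla* UMI was seen in 93.4% of the WT phagocytes, but also in 38.6% of WT T cells, 29.2% of WT neutrophils and 31.5% of WT stromal cells, at median depths of 15489.5, 8212, 3700.5 and 14766 UMIs. With each cell thinned to 3000 UMIs these shares were 87.7%, 20%, 24.9% and 10.1%. In the TNF-Tg library the thinned shares were 87.5% in the phagocytes, 0% in T cells and 3.64% in neutrophils. Few such cells met the rule: 2 of 61 WT T cells (3.28%, Clopper-Pearson 95% interval 0.40 to 11.3%) and 0 of 236 WT neutrophils (interval up to 1.55%) did, at lower depth than the phagocytes. At a like depth 8 of 2333 WT stromal cells (0.343%, 0.148 to 0.675%) met it apart from *Dcn*. Stromal cells hold *Ace* themselves, at 366 CPM in the TNF-Tg library. The limit on *Treml4*, *Ace* and *Spn* could thus exclude them whatever their *Retnla*, and the stromal share does not measure background alone. *Ear2* was seen in 82.3% of WT phagocytes, 0% of WT T cells and 0.424% of WT neutrophils.

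Individual cells varied widely. In WT phagocytes *Retnla* ranged from 0 to 3027 UMIs with a median of 157.5, *Ear2* from 0 to 114 with a median of 12, *Cd226* from 0 to 19 with a median of 2 and *Batf3* from 0 to 19 with a median of 3. All 4 genes were seen together in 206 of 350 cells (WT) and 11 of 27 (TNF-Tg). *Retnla* was the lone gene of the rule in 53 WT cells, and 23 WT cells held no *Retnla* UMI. At the edge of the rule, the 24 WT cells with 4 UMIs had 293 CPM of *Retnla*, 42.5 of *Ear2* and 99.2 of *Batf3*, and the 10 WT cells with 5 UMIs had 201, 106 and 137 CPM. On both sides of the threshold *Retnla* and *Ear2* lay far below the class as a whole.

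When *Dcn*-low WT and TNF-Tg cells were clustered on 1985 variable genes without the genes of the rule, 240 of the 350 WT phagocytes (68.6%) and 20 of the 27 TNF-Tg phagocytes (74.1%) fell into 1 cluster of 334 cells, led by *Lyz1*, *Lpl*, *Ear2*, *Fn1* and *Retnla*. A further 51 WT cells and 1 TNF-Tg cell lay in a cluster led by *Ifit3*, *Cd93* and *Apoe*, with 27303 CPM of *Apoe* and 8818 CPM of *Retnla*. Another 26 WT cells had 1009 CPM of *Ear2* and 9536 CPM of *Apoe*. A group of 12 WT cells had 11799 CPM of the MHC class II gene *H2-Ab1* and only 49.0 CPM of *Retnla*, and 8 WT cells and 1 TNF-Tg cell had 699 CPM of the proliferation gene *Mki67*. The rule therefore held 1 main population and several smaller groups.

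To ask how these phagocytes differed from macrophages and dendritic cells, UMIs were summed per class and library and fitted with the quasi-likelihood test of edgeR with library as a block, and p-values were adjusted by the Benjamini-Hochberg method over all genes. Genes that defined a class were left out of the counts. Gating and testing used the same cells, and the p-values therefore describe only how steadily a gene separated gated classes across libraries. The C1q macrophages were numerous enough in WT and TNF-Tg only. Without WT, or without TNF-Tg, that class had no replicate, and the spread came from the other classes. Each log2 difference is given with its standard error.

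Against Lyve1 macrophages, the phagocytes had far less of the macrophage program and more *Fn1*, *Lyz1*, *Lpl*, *Ccr2* and *Batf3*. Of 8985 genes, 362 were higher (4.03%) and 592 lower (6.59%). In the list of 24 macrophage core genes, 17 were lower and 0 higher, with a median log2 difference of -1.99 against -0.03 for all genes, and 11 were lower without tdT2 or with WT and TNF-Tg only. *Maf*, which encodes a transcription factor of macrophage identity, was at 164, 100.4, 195 and 243 CPM in the tdT1, tdT2, WT and TNF-Tg phagocytes and at 369, 1648, 1352 and 939 CPM in Lyve1 macrophages. The classes did not overlap, and the log2 difference was -2.36 ± 0.41 (adjusted p = 0.000764). The folate receptor gene *Folr2*, at 20.5, 56.5, 84.5 and 93.1 CPM in the phagocytes, was at 198 to 1179 CPM in Lyve1 macrophages. The general macrophage gene *Adgre1*, which encodes F4/80, did not pass the test (-0.40 ± 0.26, adjusted p = 0.403).

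Of 20 dendritic cell core genes 2 were higher (*Batf3* and *Cd24a*) and 4 lower (*Kmo*, *Zbtb46*, *Cd209a* and *Irf8*) than in Lyve1 macrophages, with a median log2 difference of 0.21. Without tdT1 5 were higher and 2 lower, and without tdT2 2 and 2. *Batf3* was higher in each of the 4 libraries, where those cells had 136, 62.3, 48.3 and 27.2 CPM, and the log2 difference was 2.09 ± 0.41 (adjusted p = 0.00194). *Id2*, which encodes an inhibitor of E proteins that dendritic cells need, was at 397, 264, 586 and 262 CPM against 249, 17.0, 50.6 and 30.2 CPM in Lyve1 macrophages. *Hopx*, a homeodomain gene, was at 200.4, 490, 205 and 240 CPM against 172, 34.0, 15.1 and 19.8 CPM. Both passed the test, at 2.63 ± 0.55 (adjusted p = 0.00336) and 2.81 ± 0.55 (adjusted p = 0.00199). The 25 Lyve1 macrophages of tdT1 lay closer to the phagocytes than those of the other libraries in *Id2*, *Hopx* and *Batf3*, and without tdT1 the number of genes called against Lyve1 macrophages was 1270 in place of 954.

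The largest rise against Lyve1 macrophages was that of *Lyz1*, a lysozyme gene. It was at 4246, 1889, 3291 and 6766 CPM in the phagocytes and at 771, 119, 104 and 26.2 CPM in Lyve1 macrophages (5.06 ± 1.07, adjusted p = 0.00374). *Lyz1* has the near copy *Lyz2*, and how reads that fit both were counted is not given in the sources used here. *Fn1*, which encodes the matrix protein fibronectin, was at 3374, 2805, 3049 and 2516 CPM against 1056, 11.3, 124 and 43.8 CPM (4.31 ± 0.79, adjusted p = 0.00115). *Lpl*, which encodes lipoprotein lipase, was at 1583, 1927, 973 and 595 CPM against 502, 22.7, 45.6 and 23.8 CPM (3.94 ± 0.72, adjusted p = 0.00101). The 3 genes were thus high in the phagocytes of every library. The other leading rises were *Btbd17*, *Klrb1a*, *Fam78b*, *Tmem154*, *Tarm1*, *Gfi1b* and *Dcstamp*, which pooled over the libraries were 10.6 to 22.6 times as high. The leading falls were *Dmwd* (0 UMIs against 397, at least 37.6-fold lower), *Arhgef5* (0 against 276, at least 26.1-fold lower), *Sema6a* (1 against 843, ratio 0.00418, 0.000106 to 0.0233), the lectin gene *Cd209g* and *Enpep*, with the bounds taken at 3 UMIs over the pooled phagocytes.

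Against C1q macrophages fewer genes were called, 145 higher (1.61%) and 155 lower (1.73%) of 8982. Macrophage core genes were lower for 9 of 21 and higher for 0, with a median of -1.42 against 0.01 for all genes, and dendritic cell core genes were higher for 8 of 20 and lower for 1, with a median of 2.48. The 9 lower macrophage genes were 3 without WT and 6 without tdT2, and the 8 higher dendritic cell genes 4 without tdT2 and 5 without WT. *Selenop*, a selenium transport gene, was at 694 CPM (WT) and 403 CPM (TNF-Tg) in the phagocytes and at 3981 and 1253 CPM in C1q macrophages (-2.28 ± 0.40, adjusted p = 0.00375). *Maf* was again lower, at 195 and 243 CPM against 1309 and 941 CPM (-2.35 ± 0.48, adjusted p = 0.0101). Higher dendritic cell genes were *Cd24a*, a surface glycoprotein gene (76.6 and 42.3 CPM against 1.08 and 1.49 CPM, 5.92 ± 1.01, adjusted p = 0.00373), *Itgax*, which encodes CD11c (29.0 and 8.46 CPM against 0.360 and 2.61 CPM), and *Cd209a*, *Dpp4*, *P2ry10*, *Hepacam2*, *Irf4* and *Batf3*. The lower one was *Irf8*, a regulator of cDC1, at 21.6 and 11.3 CPM against 115 and 92.8 CPM (-2.29 ± 0.48, adjusted p = 0.0105).

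The leading rises against C1q macrophages included *Hr* (286 UMIs over WT and TNF-Tg against 0, at least 88.1-fold higher), *Gfi1b* (77 against 0, at least 23.7-fold higher), *Synpo* (77 against 0, at least 23.7-fold higher) and *Klrb1a* (86 against 0, at least 26.5-fold higher). The bounds use 3 UMIs over the pooled C1q macrophages. *Cd2*, an adhesion receptor gene usually found in lymphocytes, held 510 UMIs against 7 (67.4-fold, 32.5 to 168), and *Aldh1a2*, which encodes a retinal dehydrogenase, 216 against 1 (200-fold, 35.5 to 7924). *Upb1*, *Ccdc170*, *Akr1c18* and *Cd24a* completed the 10 leading rises, and *Spp1*, *Prr5*, *Ms4a4a*, *Ccl12* and *Itgb5* were the 5 leading falls. *Batf3* passed the test against C1q macrophages (1.93 ± 0.49, adjusted p = 0.0331) but missed it without tdT2 (adjusted p = 0.0825) or without TNF-Tg (adjusted p = 0.18).

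Against Cd209a dendritic cells the picture turned over, with 532 genes higher (5.92%) and 411 lower (4.58%) of 8980. The gate of these dendritic cells required fewer than 10 C1q UMIs, a limit that the phagocytes did not have. Macrophage core genes were higher for 15 of 21 and lower for 1, with a median of 2.40, and fewer were higher with C1q-low phagocytes alone (given below). The lower gene, *Timd4*, lost its call under DESeq2, with WT and TNF-Tg only and with any 1 library left out, and its log2 fold change turned to 2.04 without TNF-Tg. The dendritic cell core genes were lower for 11 of 18 and higher for 0, with a median of -2.36, against a median near 0 for all genes. *Maf* was at 164, 100.4, 195 and 243 CPM in the phagocytes and at 29.0, 0, 5.75 and 2.94 CPM in these dendritic cells (5.08 ± 0.63, adjusted p = 2.79e-05). *Adgre1* was at 139, 182, 185 and 209 CPM against 36.2, 11.1, 52.6 and 21.0 CPM (2.40 ± 0.31, adjusted p = 4.09e-05). *Zbtb46*, which encodes a transcription factor of conventional dendritic cells, was at 0, 0, 3.6 and 2.82 CPM against 65.1, 33.3, 20.5 and 20.6 CPM (-3.32 ± 0.59, adjusted p = 0.000956). *Klrd1*, *Bcl11a*, *Kmo*, *Napsa*, *Slamf7*, *Klrb1b*, *Dpp4*, *P2ry10*, *Irf8* and *Cadm1* were also lower. *Batf3* did not pass this test (0.97 ± 0.39, adjusted p = 0.129), nor did *Itgax* or *Cd24a*.

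*Lyz1* and *Lpl* were again among the 10 leading rises. *Lyz1* was at 7.24, 55.5, 61.6 and 2.94 CPM and *Lpl* at 0, 0, 9.86 and 3.36 CPM in the dendritic cells, far below the phagocytes in every library. *Btbd17*, *Ptgs1*, *Dcstamp*, *Hebp2*, *Trpv4*, *Fer*, *Kitl* and *Mxra7* were seen in the phagocytes (31 to 135 UMIs) and at 0 UMIs in the dendritic cells. *Cd7*, a surface gene of lymphoid and some dendritic cells, held 0 UMIs in the phagocytes of all 4 libraries and stood at 57.9, 77.7, 71.5 and 346 CPM in the dendritic cells. *H2-Oa*, a modulator of peptide loading, held 7 UMIs against 372 (-6.53 ± 0.73, adjusted p = 7.96e-06), and *Spint2*, *Cd300c* and *Ngfr* were the other leading falls.

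**Figure D2:**
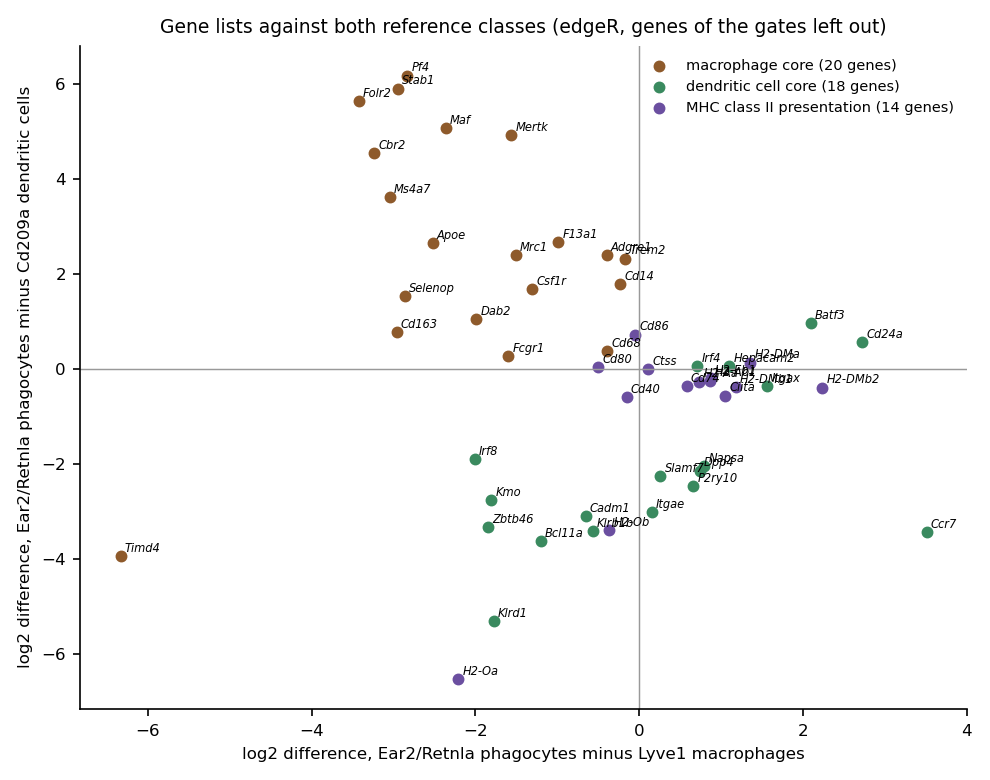
Log2 differences of macrophage core, dendritic cell core and MHC class II genes in the *Ear2* and *Retnla* phagocytes against Lyve1 macrophages (horizontal axis) and against Cd209a dendritic cells (vertical axis), 1 point per gene. Most macrophage genes lie to the left and above 0, lower than in Lyve1 macrophages and higher than in the dendritic cells, and most dendritic cell genes lie below 0 on the vertical axis.

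The MHC class II genes present antigen to T cells. The phagocytes had 16716, 15401, 18885 and 15198 CPM of the invariant chain gene *Cd74* and 7976, 5749, 7900 and 5810 CPM of *H2-Ab1*, and *Cd74* did not pass the test against Lyve1 macrophages, C1q macrophages or dendritic cells. Against Lyve1 macrophages 2 of 14, *H2-DMa* and *H2-DMb2*, which help load peptides, were higher, where 4.03% of all genes were (1.36 ± 0.39, adjusted p = 0.0267, and 2.23 ± 0.69, adjusted p = 0.0423). Neither call held without tdT2, without WT or without TNF-Tg, with adjusted p between 0.062 and 0.187. Against the dendritic cells *H2-Oa* and *H2-Ob* were lower.

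Of 20 transcription factor genes, 5 were higher and 3 lower than in Lyve1 macrophages, 5 and 3 against C1q macrophages, and 6 and 3 against Cd209a dendritic cells. Over all genes the shares higher and lower were 4.03% and 6.59%, 1.61% and 1.73%, and 5.92% and 4.58%. The count against C1q macrophages was 0 higher and 1 lower without tdT2, 2 and 0 without WT, and 1 and 3 without TNF-Tg, that against dendritic cells 4 and 1 without TNF-Tg, 5 and 1 without WT and 3 and 0 with WT and TNF-Tg only, and that against Lyve1 macrophages 3 and 3 without WT. *Id2* and *Hopx* were higher and *Irf8* was lower than in each of the 3 classes, by calls that held against Lyve1 macrophages whichever library was left out. Against C1q macrophages all 3 missed the threshold without tdT2 (adjusted p = 0.0552 to 0.0928) or without WT (0.0778 to 0.332), and *Hopx* also without TNF-Tg. Against the dendritic cells *Id2* missed it without tdT2 or WT, *Hopx* without tdT2 or TNF-Tg, and *Irf8* without TNF-Tg (adjusted p = 0.0622 to 0.168). Classes outside these comparisons shared part of this. In TNF-Tg *Hopx* was at 332 CPM in inflammatory monocytes, 234 CPM in patrolling monocytes and 16.7 CPM in cDC1, against 240 CPM in the phagocytes. *Id2* was there at 149, 192 and 795 CPM in the same classes, against 262 CPM in the phagocytes. *Maf* lay between the macrophages and the dendritic cells. Against the dendritic cells *Zeb2*, a regulator of myeloid fate, was also higher and *Spi1* and *Relb* were lower.

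Among surface receptors of the SLAM and C-type lectin families, *Slamf9*, *Slamf8*, *Clec12a*, *Clec4b1*, *Clec4e* and *Clec4a2* were higher than in Lyve1 macrophages, 6 of 15, and *Clec4d*, *Clec4n*, *Cd209a* and *Clec10a* were lower, against 4.03% and 6.59% of all genes. *Clec4d*, a receptor for fungal and mycobacterial ligands, stood at 4.09, 0, 5.77 and 8.46 CPM in the phagocytes and fell below C1q macrophages as well (-2.74 ± 0.50, adjusted p = 0.00632). Of 11 genes of inflammatory cytokines and their inhibitors, *Il1rn*, the interleukin-1 receptor antagonist, was the 1 that was higher than in Lyve1 macrophages and in dendritic cells, a count near the share of all genes (4.03% and 5.92%). Of 12 interferon-stimulated genes, *Ifit3* was the 1 that passed the test in any of the 3 comparisons, lower than in C1q macrophages, where 1.73% of all genes were.

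Of the 12 monocyte genes tested, 3 were higher and 0 lower than in Lyve1 macrophages, 1 and 1 against C1q macrophages, and 0 and 4 against dendritic cells. Over all genes the shares higher and lower were 4.03% and 6.59%, 1.61% and 1.73%, and 5.92% and 4.58%. In this list *Ccr2*, the receptor that draws monocytes from the blood, was among the most abundant, at 2098, 1431, 1725 and 1182 CPM in the phagocytes. Lyve1 macrophages had 1089, 170, 182 and 168 CPM (2.37 ± 0.51, adjusted p = 0.00435, and 0.0582 without tdT2), and C1q macrophages and dendritic cells did not differ from the phagocytes by the test (adjusted p = 0.913 and 0.154). *Ly6c2*, *Plac8* and *Ms4a4c*, genes of blood monocytes, were lower than in the dendritic cells. *Ly6c2* was at 0, 0, 13.9 and 0 CPM in the phagocytes and at 65.2, 189, 8.22 and 119 CPM in the dendritic cells, so that in WT it was the higher of the pair. Among growth factor receptors, *Csf2ra*, the receptor chain for GM-CSF, was at 311, 232, 360 and 310.2 CPM and higher than in Lyve1 macrophages (1.27 ± 0.26, adjusted p = 0.00246), while *Csf1r*, the receptor for M-CSF, was lower than there (-1.31 ± 0.39, adjusted p = 0.0357, and 0.248 without tdT2) and *Flt3* was at 0 to 18.8 CPM.

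The rule's *Retnla* is known as an interleukin-4 and interleukin-13 target, and the list of alternative activation genes was mixed. The interleukin-4 receptor gene *Il4ra* was at 49.1, 31.4, 46.7 and 59.2 CPM, lower than in Lyve1 macrophages (-2.01 ± 0.34, adjusted p = 0.000502) and in C1q macrophages (-1.64 ± 0.38, adjusted p = 0.0187). The lectin gene *Clec10a* and the chemokine gene *Ccl24* were also lower than in Lyve1 macrophages, and *Fn1* was higher, so that 1 of 14 was higher and 3 were lower, against 4.03% and 6.59% of all genes. Against the dendritic cells 3 of 14 were higher (*Mrc1*, *Ccl24* and *Fn1*) and *Il13ra1* was lower, against 5.92% and 4.58% of all genes. *Il1rl1*, which encodes the interleukin-33 receptor ST2, was at 131, 107, 56.8 and 14.1 CPM, higher than in Lyve1 macrophages (1.75 ± 0.47, adjusted p = 0.0185) and C1q macrophages (3.18 ± 0.66, adjusted p = 0.0105).

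Of 16 chemokine genes 1 was higher and 4 were lower than in Lyve1 macrophages, and 0 were higher and 3 lower than in C1q macrophages, where DESeq2 called none of the 16. Over all genes 4.03% and 6.59%, and 1.61% and 1.73%, were higher and lower. *Ccl8* was at 69.5, 50.2, 454 and 5.64 CPM, against 1610, 4893, 18153 and 4920 CPM in Lyve1 macrophages (-6.11 ± 0.58, adjusted p = 1.39e-06), and *Ccl7* and *Ccl12* were lower than in either macrophage class by edgeR. Against the dendritic cells 9 of 16 chemokine genes were higher, where 5.92% of all genes were, but 5 with WT and TNF-Tg only and 4 with members under 10 C1q UMIs, when 3 were lower. Among them was *Ccl6* (1828, 2146, 3272 and 3669 CPM against 413, 477, 497 and 389 CPM), and *Ccl5* was lower. In lipid handling, *Apoe* (1370, 841, 4434 and 691 CPM), *Cd36*, *Abca1* and *Msr1* were lower than in Lyve1 macrophages, while *Lpl* and the cholesterol exporter gene *Abcg1* were higher. These 2 higher and 4 lower of 12, against 4.03% and 6.59% of all genes, became 1 and 2 without tdT2 and 2 and 2 with WT and TNF-Tg only. Against the dendritic cells 6 of 12 lipid handling genes were higher and 0 lower, where 5.92% and 4.58% of all genes were. Against C1q macrophages 0 were higher and 2 lower, where 1.61% and 1.73% of all genes were. *Pparg*, a lipid-sensing nuclear receptor gene, was at 24.5, 37.7, 16.8 and 5.64 CPM and higher than in Lyve1 macrophages (3.1 ± 0.60, adjusted p = 0.00193, and 0.166 without WT).

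The complement C1q genes, which mark tissue macrophages, split the phagocytes. Of the WT cells 172 held fewer than 10 C1q UMIs and 178 held 10 or more, with 50 cells at 0, a highest value of 550 and 45 cells near the division, at 5 to 14 UMIs. In TNF-Tg mice the split was 11 and 16 cells. Both WT groups had the genes of the rule, with 14558 and 26196 CPM of *Retnla* and 995 and 918 CPM of *Ear2* in cells with few and many C1q UMIs. *Batf3* (265 and 224 CPM), *Ccr2* (1736 and 1714 CPM), *Lyz1* (3023 and 3567 CPM) and *Cd74* (17895 and 19905 CPM) were also close.

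Many macrophage core genes went with C1q. Of the 20 with at least 30 UMIs in WT, C1q genes aside, 14 were at least 2-fold higher in cells with many C1q UMIs, 0 were at least 2-fold lower and 6 lay within 2-fold, among them *Cd68* (213 and 279 CPM), *Adgre1* (147 and 224 CPM) and *Mrc1* (550 and 924 CPM). Of 8414 genes with at least 30 UMIs 4.83% were at least 2-fold higher and 2.15% at least 2-fold lower in this split. From few to many C1q UMIs, WT *Apoe* went from 264 to 8731 CPM, *Maf* from 30.9 to 364 CPM, *Selenop* from 132 to 1272 CPM and *Csf1r* from 171 to 510.0 CPM. The split followed the clusters in part. *C1qa* was at 667 CPM in members of the cluster led by *Lyz1* and *Lpl*, and at 4354 and 2168 CPM in those of the 2 *Apoe*-rich clusters. The 240 WT members of the first cluster held 5193 of the 24610 *Apoe* UMIs and 2749 of the 6070 *C1qa* UMIs of WT members. Of 15 dendritic cell core genes 8 were at least 2-fold lower in cells with many C1q UMIs, 1 was higher (*Irf8*, 3.2 and 40.6 CPM) and 6 lay within 2-fold, beside the same shares of all genes. *Cd24a* (140 to 11.0 CPM), *Cd209a* (305 to 63.3 CPM), *Itgax* (48.6 to 8.78 CPM) and *Dpp4* (44.7 to 6.95 CPM) were among the lower ones, and *Id2* went from 840 to 323 CPM. The 27 TNF-Tg cells had the same order for *Apoe* (69.2 and 939 CPM), *Cd24a* (138 and 3.95 CPM) and *Id2* (563 and 142 CPM), though not for *Cd209a* (9.88 and 19.7 CPM). Of 15 macrophage core genes with at least 30 UMIs there, 12 were at least 2-fold higher and 0 at least 2-fold lower, where 9.59% and 3.56% of 1543 genes were. C1q was read from the same cells, so these values are a description without a test.

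With the C1q-low cells alone in the class, the macrophage core against the dendritic cells dropped from 15 to 4 higher genes of 21, while over all genes the higher calls dropped from 532 of 8980 to 245 of 9162 and the lower ones from 411 to 312, and *Apoe* and *Selenop* no longer lay above those cells. Of the dendritic cell core 10 genes were lower, 9 of them among the 11 lower ones of the whole class (*Cadm1* and *Dpp4* missed the threshold).

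**Figure D3:**
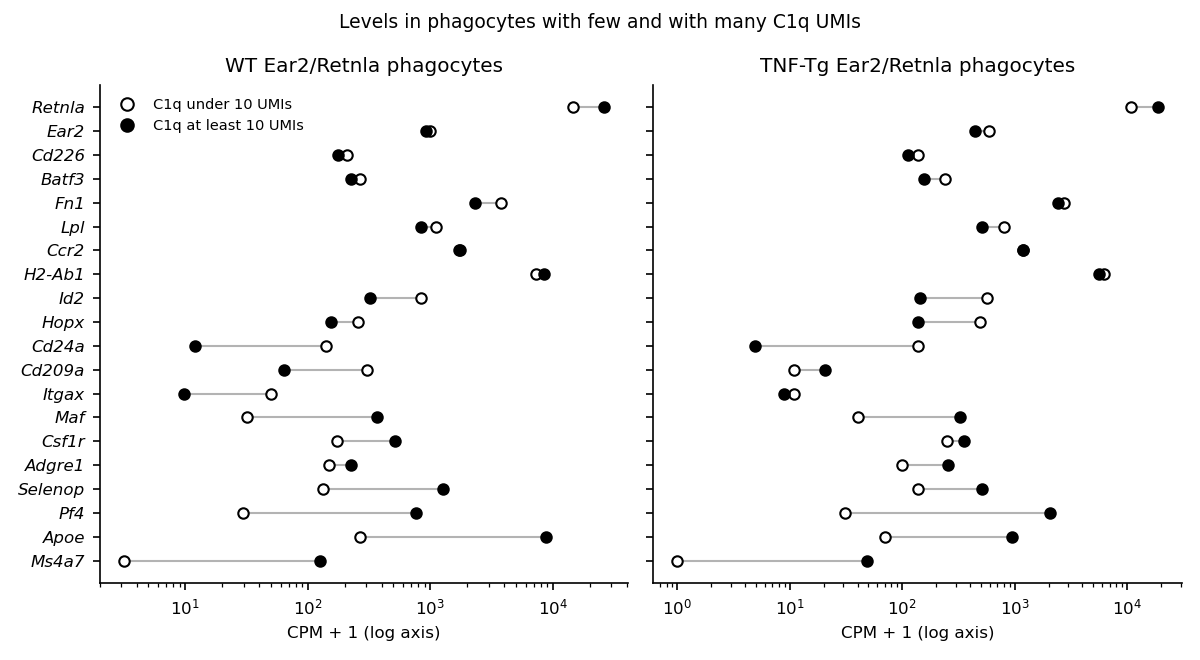
Levels (CPM + 1, log axis) of 20 genes in phagocytes with fewer than 10 C1q UMIs (open circles) and with at least 10 (filled circles), in WT (172 and 178 cells) and TNF-Tg (11 and 16 cells). *Ear2*, *Batf3* and *Ccr2* sit close together in WT, while *Apoe* and *Maf* are higher and *Cd24a* and *Itgax* lower in cells with many C1q UMIs.

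Markers of other cells were sparse. *Ear2* belongs to a family named for eosinophils, and the 9 eosinophil markers summed to 6 UMIs in the WT phagocytes and 0 in the TNF-Tg phagocytes, with *Epx*, *Prg2* and *Ccr3* at 0. Markers of alveolar macrophages came to 108 and 7 UMIs, 93 of the WT ones from *Pparg*, with *Marco* and *Car4* at 0. The T cell list held 90 and 0 UMIs (*Trac* at 0), the natural killer cell list 1 and 0, the mast cell list 545 and 26 (98.2 and 73.3 CPM summed, *Mcpt4* leading in WT), the neutrophil list 288 and 2 and the stromal list 471 and 14 (*Dcn* leading in WT). The 10 genes of serous cavity macrophages held 242 UMIs in WT, 191 of them from *Cd93*. Doublet calling marked 1 of the 350 WT phagocytes and 0 of the others.

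In TNF-Tg mice the phagocytes were 8.01 times less frequent. They made up 6.38% of cells in WT (Clopper-Pearson 95% interval 5.75 to 7.06%) and 0.796% in TNF-Tg (0.525 to 1.16%), a ratio of 0.125 (0.0811 to 0.185). The difference was as large over *Dcn*-low cells with a UMI of the leukocyte gene *Ptprc*, 337 of 2746 (12.3%) and 25 of 1968 (1.27%), and 9.66-fold there (6.43 to 15.1). For comparison, the phagocytes were 9.62% of these cells in tdT1 and 12.5% in tdT2, which were sorted for the reporter. *Retnla* was the lone gene of the rule in 12 of 28 tdT1, 4 of 19 tdT2 and 53 of 350 WT phagocytes. Fewer than 2 UMIs of *Ear2* and *Cd226* were held by 14, 4 and 61 of them. Each condition was 1 library of 3 pooled mice, so differences between mice, sorts and conditions cannot be told apart.

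Under the rule of 5 UMIs the difference in share was larger than that of Lyve1 macrophages, whose share went from 24.9% to 9.02% (ratio 0.362, 0.319 to 0.410). The intervals of the ratios did not overlap under the rule, but with at least 2 UMIs of *Ear2* and *Cd226* alone the phagocytes differed by no more than Lyve1 macrophages (2.75-fold and 2.76-fold). C1q macrophages made up 4.70% and 5.04% (ratio 1.07, 0.879 to 1.31) and cDC1 1.40% and 1.47%. Cd209a dendritic cells were more frequent, at 1.60% and 5.28%, and so were patrolling monocytes, at 0.528% and 10.9%, and inflammatory monocytes, at 0.729% and 9.53%. Most of the 29 WT cells in the patrolling monocyte gate lay outside the cluster led by *Eno3*, *Ace* and *Treml4*. All gated phagocytes together were 40.3% and 42.1% of cells.

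**Figure D4:**
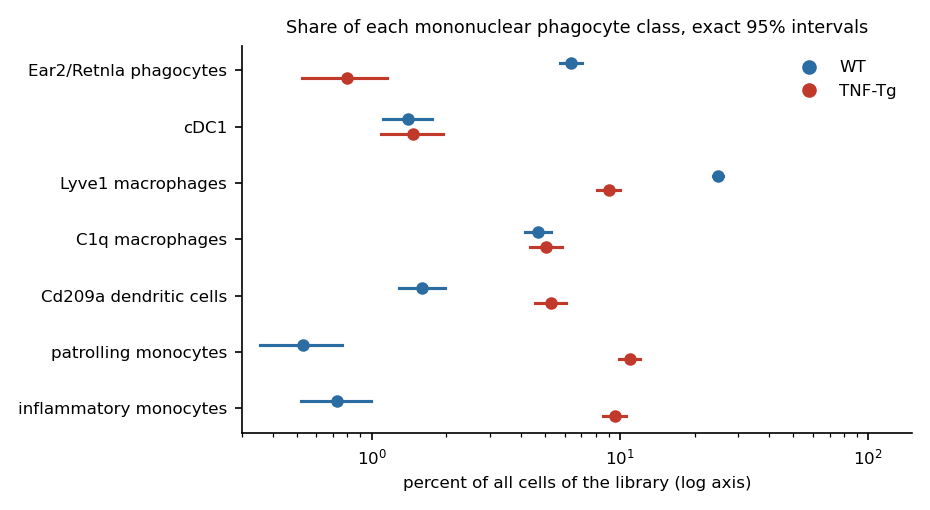
Share of each phagocyte class among all cells of the WT (blue) and TNF-Tg (red) library, with exact 95% intervals as lines on a log axis. The *Ear2* and *Retnla* phagocytes went from 6.38% to 0.796% under the rule of 5 UMIs and Lyve1 macrophages from 24.9% to 9.02%, while both kinds of monocytes and Cd209a dendritic cells were more frequent in TNF-Tg.

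The size of the loss depended on the threshold. With at least 2 UMIs of *Ear2*, *Retnla* and *Cd226* in place of 5 the class held 493 WT and 84 TNF-Tg cells and was 3.63 times less frequent in TNF-Tg, and with at least 2 UMIs of *Ear2* and *Cd226* alone it held 329 and 74 cells and was 2.75 times less frequent. Both genes belong to the rule, so counts on *Ear2* and *Cd226* alone are a description. At least 5 UMIs of these genes were held by 265 WT and 16 TNF-Tg cells, and the difference in share was then 10.2-fold. With cells thinned to 3000 UMIs it was 4.79-fold at 2 UMIs and 9.86-fold at 5 UMIs. With the cluster led by *Lyz1* and *Lpl*, it was 8.35-fold, at 311 and 23 cells. The level of *Retnla* in stromal cells also differed between the libraries (231 CPM for WT, 11.1 CPM for TNF-Tg), and its part in the shares was not tested.

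In the remaining TNF-Tg phagocytes the summed level of *Batf3*, which the rule did not use, was 1.38-fold lower than in WT (1.07 to 1.80). Of the genes of the rule, which are given as a description, *Ear2* was 1.97-fold, *Cd226* 1.61-fold and *Retnla* 1.23-fold lower in CPM, while the median of *Retnla* per cell was 157.5 UMIs in WT and 163 UMIs in TNF-Tg. Over 8523 genes with at least 30 UMIs, 185 (2.17%) were at least 2-fold higher and 287 (3.37%) at least 2-fold lower in TNF-Tg with the 95% counting interval past equality, and the median log2 ratio was -0.07. With 27 cells, single cells can set a value.

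The phagocytes of the 2 libraries did not fall into the same clusters. The WT cells of the 2 *Apoe*-rich clusters (51 and 26 cells) had 1 and 0 counterparts in TNF-Tg. For many named genes, values over all members are therefore followed by those within the cluster led by *Lyz1* and *Lpl* alone. This comparison was chosen after the values were seen (240 WT and 20 TNF-Tg cells, where 1.67% of genes were called higher and 3.68% lower). *Apoe*, the lipid carrier, was at 4434 (WT) and 691 CPM (TNF-Tg; ratio 0.156, 0.137 to 0.177) and detected in 300 of 350 and 11 of 27 cells. Within that cluster it was at 1229 and 79.8 CPM (ratio 0.065, 0.0407 to 0.0985). It was also lower in TNF-Tg among Lyve1 macrophages (22735 and 5778 CPM) and C1q macrophages (29863 and 2165 CPM). *Ccl8*, a chemokine gene, was at 454 and 5.64 CPM, where the TNF-Tg value is 2 UMIs (ratio 0.0124, 0.00150 to 0.0450), and 29.9% of the WT UMIs came from 1 cell, and within the cluster it was at 62.9 and 3.63 CPM. *Fkbp5*, a glucocorticoid-induced gene, was seen in 174 of 350 cells in WT and in 1 of 27 in TNF-Tg (56.2 and 2.82 CPM, and 45.7 and 0 CPM within the cluster), and in Lyve1 macrophages it was at 140 and 11.5 CPM. In C1q macrophages it was at 130 and 4.85 CPM, so both *Apoe* and *Fkbp5* were lower in 3 classes of the same TNF-Tg library.

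*Cd209a* was at 186 and 16.9 CPM, detected in 137 and 3 cells, and within the cluster at 117 and 21.8 CPM. *F10*, a coagulation factor gene, held 261 UMIs in WT and 0 in TNF-Tg (at least 5.56-fold lower), *Kcnq1ot1* 133 and 0 (at least 2.83-fold lower), and *Nfkbiz* was at 75.0 and 16.9 CPM. Within the cluster *F10* held 255 and 0 UMIs and *Kcnq1ot1* 109 and 0, and *Nfkbiz* was at 59.9 and 14.5 CPM. *Snhg6*, *Xylt1* and *Rnase4* completed the leading falls. Within the cluster *Snhg6* held 154 UMIs in WT and 0 in TNF-Tg and *Xylt1* 199 and 1, and both were called lower. *Rnase4* held 35 and 0 UMIs there and was not called (ratio interval 0 to 1.70). *Id2* was at 586 and 262 CPM (699.6 and 294 CPM within the cluster) and *Il1rl1* at 56.8 and 14.1 CPM (64.1 and 18.1 CPM). Of the dendritic cell core list 7 of 15 genes were lower and 0 higher, with a median log2 ratio of -0.94, where 3.37% of all genes were lower. Of the members 12 WT and 0 TNF-Tg phagocytes lay in a cluster led by *Klrb1b*, *Slamf7* and *Cd209a*. Within the cluster led by *Lyz1* and *Lpl* 3 of 13 were lower and 1 higher, with a median of -0.83.

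Most leading rises rested on few cells or on 1 cell. Of 208 *Mucl1* UMIs in TNF-Tg 99.5% came from 1 cell, as did 94.8% of *Thbs1*, 89.3% of *Cd83*, 79.2% of *Hist1h1d*, 74.0% of *Fabp5* and 54.3% of *Mthfd1*. *Hp*, which encodes haptoglobin, was at 9.37 and 70.5 CPM (ratio 7.53, 4.47 to 12.3), with UMIs in 6 of 27 TNF-Tg cells, and *Gngt2* at 22.5 and 141 CPM (ratio 6.26, 4.42 to 8.76), with UMIs in 4. Within the cluster *Gngt2* was at 23.4 and 69.0 CPM, a smaller ratio of 2.94 (1.70 to 4.84). *Cxcl12* and *Cmss1* came to 13 and 11 UMIs in TNF-Tg. Within the cluster *Cxcl12* held 29 UMIs in WT and 8 in TNF-Tg (ratio 4.23, 1.67 to 9.49). Within the lists, *Pf4* of the macrophage core was higher (388 and 1481 CPM, and 137 and 363 CPM within the cluster), 4 of 10 monocyte genes were higher and 1 (*Ly6c2*, 77 and 0 UMIs) lower, and 3 of 10 proliferation genes were higher, where 2.17% of all genes were. The higher monocyte genes, *Thbs1*, *Plac8*, *Itgal* and *Hp*, had 48.0 to 94.8% of their TNF-Tg UMIs in 1 cell, and single TNF-Tg phagocytes lay in 2 clusters led by monocyte genes, one with *Ly6c2* and *Hp* and one with *Ace* and *Treml4*. Within the cluster led by *Lyz1* and *Lpl* 1 of 7 monocyte genes was higher (*Thbs1*) and 0 of 5 proliferation genes. The proliferation genes called over all members each had at least 93.2% of their TNF-Tg UMIs in 1 cell.

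The dissociation response genes, which cells induce during tissue digestion, were lower in TNF-Tg for 5 of 12, against 3.37% of all genes, with *Fos* at 1936 and 677 CPM, *Junb* at 1408 and 612 CPM and *Egr1* at 348 and 90.2 CPM. Within the cluster led by *Lyz1* and *Lpl* 7 of 12 were lower, with *Fos* at 1747 and 613 CPM, *Junb* at 1348 and 624 CPM and *Egr1* at 279 and 79.8 CPM. Their part in the other differences was not tested. Interferon-stimulated genes had 0 of 10 called in either direction, and within the cluster 1 of 9 was lower (*Oasl2*, 99 and 1 UMIs, ratio 0.155, 0.00388 to 0.883).

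**Figure D5:**
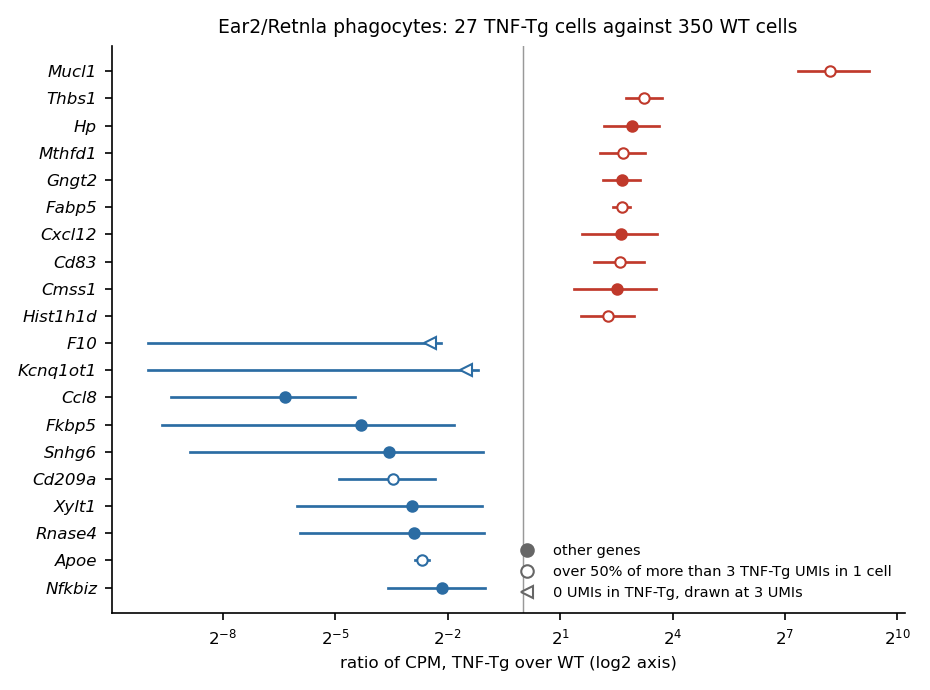
Ratio of CPM in TNF-Tg over WT phagocytes (log2 axis) for the 10 leading rises (red) and 10 leading falls (blue), with exact 95% intervals as lines. Open circles mark genes with over 50% of their TNF-Tg UMIs in 1 cell, which covers 6 of the 10 rises, and open triangles mark *F10* and *Kcnq1ot1*, which had 0 UMIs in TNF-Tg.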

How the data were processed

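Cells of 4 10x libraries were sequenced, and the authors deposited UMI counts per gene and cell, made with Cell Ranger (3.1.0 is named in the submitters' processing notes, with build mm10), limited to called cells and not normalized. The annotation used for counting is not given in the sources used here. No further cells were removed. Counts of 30406 genes shared by the matrices were used. The members, the gene lists and the tests were chosen with earlier results of these data known.

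Classes were gated on UMIs in a fixed order, so each cell had 1 class. UMIs of classes with at least 10 cells in a library were summed (22 sums, 8997 genes after filterByExpr) and fitted in R 4.3.3 with edgeR 4.0.16 (TMM, quasi-likelihood test, library block, 12 residual degrees of freedom, Benjamini-Hochberg adjustment, threshold 0.05). Standard errors were the log2 difference over the square root of F. Libraries are separate pools of mice, and the spread within a pool was not measured. On simulated counts the fit recovered 73, 71 and 72 of 100 genes changed by 2 on the log2 scale against Lyve1 macrophages (8608 genes), C1q macrophages (8732) and Cd209a dendritic cells (8694), and 16, 10 and 14 of 100 changed by 1, with 15, 17 and 8 false calls. In each comparison the false calls were a larger share of all calls than the threshold of 0.05, so the adjusted p-values may be too small.

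TNF-Tg and WT were compared without a test, by exact Clopper-Pearson, Poisson and conditional binomial 95% intervals, which cover counting error only. A gene with 0 UMIs was bounded at 3 UMIs over the group. Named genes were the markers, the listed genes, and the 10 largest rises and 5 largest falls (10 for TNF-Tg against WT) among called genes with 1 sign in all libraries (for TNF-Tg, with the interval wholly past 2-fold). Clusters used scanpy 1.11.5 (30 components, 15 neighbours, resolution 1), and Scrublet as run by scanpy predicted 4, 0, 137 and 74 doublets in tdT1, tdT2, WT and TNF-Tg, which were kept. Thinning drew 3000 UMIs per cell and left out shallower cells. RefSeq promoter windows were searched with scripts. Alternatives were DESeq2 1.42.0, its size factors, other filters, gates and libraries. Some listed genes enter the counts of their lists but are not reported here by name.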

Additional observations from a re-analysis of the deposited data

How the results depend on the processing

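The loss in TNF-Tg, -3.0 as a log2 ratio of shares, kept its direction under all 13 alternatives run, 3 of them chosen after seeing the data. It was -1.46 (-1.84 to -1.09) with at least 2 UMIs of *Ear2* and *Cd226*, -1.86 (-2.21 to -1.52) with at least 2 UMIs of all 3 genes and -2.26 (-2.68 to -1.86) with thinned cells and at least 2 UMIs, whereas at 5 UMIs it was -3.36 without *Retnla* and -3.3 with thinned cells. Genes called against Lyve1 macrophages, 954, ranged from 278 (without WT) to 1270 (without tdT1) when 1 library was left out. Against C1q macrophages 300 genes became 709 with no low-count filter, 792 with only the 2 classes compared, 638 with members under 10 C1q UMIs, and 86 (without WT) to 393 (without tdT1) with 1 library left out. Against Cd209a dendritic cells 943 became 423 with WT and TNF-Tg only, 557 with members under 10 C1q UMIs, and 400 (without TNF-Tg) to 753 with 1 library left out. The 472 genes past 2-fold in TNF-Tg became 196 (93 higher, 103 lower) with thinned cells and 302 (123 higher, 179 lower) with members under 10 C1q UMIs, of which 58 and 78 were among the 472, 417 with members of the cluster led by *Lyz1* and *Lpl* (130 higher, 287 lower, 246 among the 472, chosen after seeing the data), and 142 higher and 372 lower with the median ratio set to 1 (27.6% higher in place of 39.2%). Against the dendritic cells 3 named genes turned: *Timd4* ranged from -4.06 to 2.04 when 1 library was left out (2.04 without TNF-Tg, adjusted p = 0.851), and *Apoe* turned to -0.66 and *Selenop* to -0.46 with members under 10 C1q UMIs (adjusted p = 0.64 and 0.572). Of 204 named genes called by edgeR, DESeq2 called 179, 139 kept their call with WT and TNF-Tg only, and 119 of 190 without WT (14 of 46 against C1q macrophages). The cause of these shifts was not tested, though fewer sums and cells enter each reduced fit. No paired analysis was possible because the compared conditions had 1 library each and replicate numbers mark no shared animals, while libraries entered the class contrasts as blocks. The 27 TNF-Tg cells held 354582 UMIs, so a gene at 0 there could still reach 8.46 CPM.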

Other observations

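*Il33*, which encodes the ligand of the *Il1rl1* product ST2, was at 30.7 CPM in *Dcn*-high stromal cells of WT (28.8 to 32.6) and at 305 CPM in those of TNF-Tg mice (296 to 314). *Csf1*, which encodes M-CSF, was at 337 and 250.1 CPM in the same cells, and *Tslp* at 30.8 and 22.1 CPM. *Il4* was at 3.14 CPM over the whole WT library and 3.45 CPM over the TNF-Tg library, with counting intervals that overlapped, and *Il13* held 3 and 5 UMIs. *Pvr*, a ligand of the *Cd226* product, was at 18.5 and 14.6 CPM in stromal cells. Intervals cover counting error only, and their part in the loss of the phagocytes was not tested.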
